A study of Rattus norvegicus with 8 samples.

Results

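The core glycolytic enzymes carry out the cytosolic conversion of glucose phosphate to pyruvate and lactate. The set is defined by 10 genes (Gpi, Pfkl, Aldoa, Tpi1, Gapdh, Pgk1, Pgam1, Eno1, Pkm and Ldha). They were listed by name, with earlier results of these data known. Of these genes 9 were among the 10692 rows of the deposited expression table, and Tpi1 was not analysed here. All 9 passed the filter on low values (1 RPKM or more in 4 or more libraries). RPKM counts the reads of a gene relative to its length and to the reads of its library.

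The values come from sequencing of total RNA of islet cells of Sprague Dawley rats at postnatal day 10, dissociated, cultured and transfected with a lipid reagent. In 4 libraries the cells had received 3 locked nucleic acid (LNA) inhibitors at 20 pmol each, 60 pmol in all, directed at tiRNA-5 of the tRNAs HisGTG, GluCTC and GluTTC. tiRNA-5 are the fragments on the 5-prime side left after cleavage of a tRNA at the anticodon. In the other 4 libraries the cells had received 60 pmol of a scrambled control LNA. Whether the 4 libraries of a group stem from different litters or cultures is not labelled. A p-value therefore speaks of the variation among these libraries, and how much of it is technical is not known. The Y-linked gene Eif2s3y ran from 0.257 to 18.8 RPKM among the inhibitor libraries and from 6.96 to 14.2 RPKM among the control libraries. The origin of this spread was not tested.

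In a beta cell, glycolysis is part of glucose sensing: the pyruvate it makes is largely oxidised in mitochondria, and the ATP formed closes potassium channels and starts insulin secretion. Mature beta cells are known for keeping lactate dehydrogenase A low, so that little pyruvate is diverted to lactate. Several steps are served by isoenzymes from separate genes, and many of these genes are known targets of the hypoxia-inducible factor HIF-1 and of MYC.

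The libraries held 16035607 to 19049788 reads in listed genes, as recovered from the RPKM. Beta-cell markers were present at high level, with 11 of 12 listed and a summed RPKM of 159431 to 255342 in inhibitor cells, against 202964 to 255682 in control cells. All 7 alpha-cell markers were listed, with a summed RPKM of 7197 to 9873 in inhibitor cells and 6026 to 8455 in control cells. All 5 delta and PP-cell markers were listed too, at 486 to 713 and 674 to 1154 RPKM. By log2 fold change (inhibitor minus control), 7 beta-cell markers were positive and 4 negative, and 2 alpha-cell markers were positive and 5 negative. Of the delta and PP-cell markers 1 was positive and 4 were negative. In each of these lists 0 markers passed the test, so the sums do not give the direction of most markers. Of 20 mesenchymal and stellate markers 17 were listed, with a summed RPKM of 3640 to 5779 in inhibitor cells and 3252 to 7031 in control cells. Few markers of endothelial (4 of 10), acinar (2 of 10), ductal (3 of 7) and immune cells (2 of 11) were listed, and none of the 4 Schwann cell or 6 erythroid markers. The Y-linked genes Eif2s3y and Kdm5d stood at 0.257 and 0.120 RPKM in the fourth inhibitor library, against 6.86 to 18.8 and 2.77 to 8.73 RPKM in the other 7 libraries, so this library stands apart in them. Ddx3, listed with them as Y-linked, stood at 0.378 RPKM in that library, against 7.65 to 21.8 RPKM in the other 7. Ddx3y, also Y-linked, stood at 1.42 RPKM in that library, against 0.909 to 1.39 RPKM in the other 7. The level of Ddx3y rested on 64 to 116 reads per library. Of the 9 enzymes, Pgk1 changed its direction without this library.

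No core glycolytic enzyme passed the test between inhibitor and control cells. Of the 9, 8 had a negative log2 fold change, taken as inhibitor minus control of log2(RPKM + 1), with Pgk1 the exception, and the median over the 9 was -0.11. Over all 10688 genes tested the median was 0.015, and 45.7% were negative and 54.3% positive (50.4% negative with median-of-ratios scaling). By limma with Benjamini-Hochberg adjustment, 0 of the 9 passed an adjusted p of 0.05, as did 0% of all genes in either direction. At an unadjusted p under 0.05 there was 1 enzyme, Eno1, which was negative, against 8.98% of all genes (5.52% positive and 3.46% negative), and limma-voom on the recovered reads also gave 0 calls. The groups overlapped for each of the 9 enzymes, while 5.31% of all genes did not overlap. In bulk RNA, fewer cells of a type and less RNA per cell cannot be told apart.

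**Figure D1:**
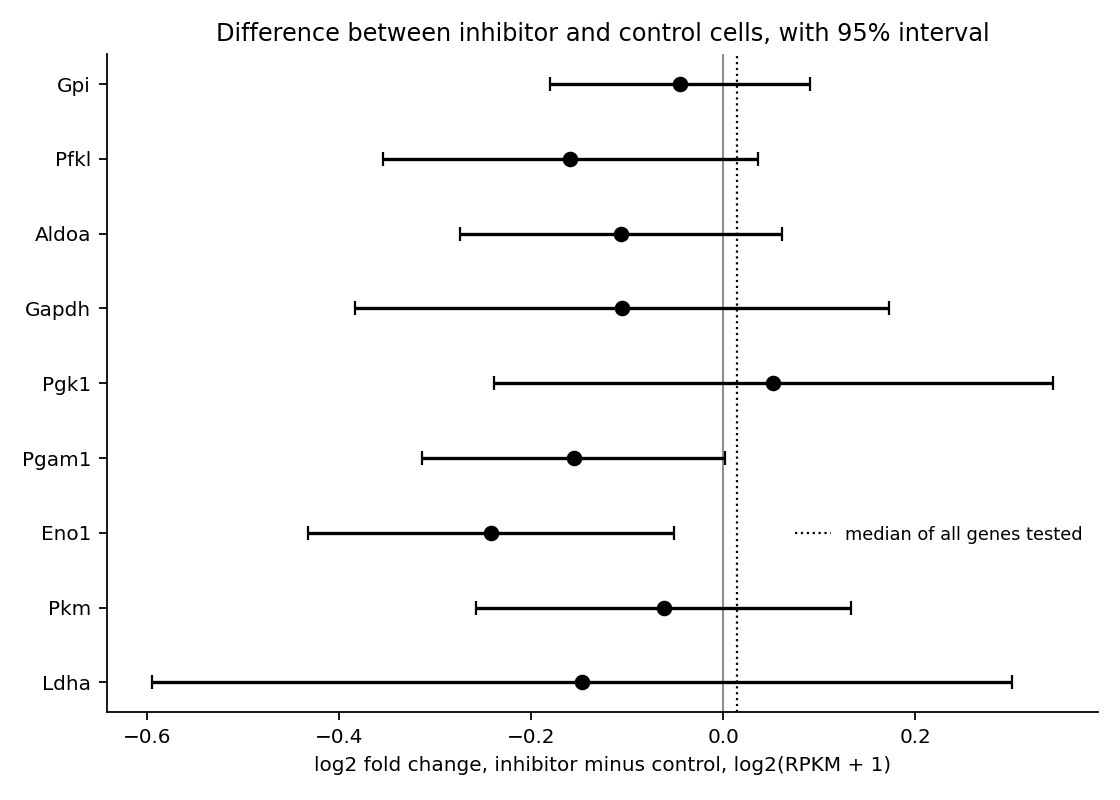
Log2 fold change of each enzyme (inhibitor minus control, log2(RPKM + 1)), in pathway order, with its 95% confidence interval, and the median of all genes tested as a dotted line at 0.015. The interval of Eno1, from -0.43 to -0.051, is the 1 interval of the 9 that does not include 0, and no enzyme passed after adjustment.

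The upper part of glycolysis rearranges and splits the hexose. Gpi, which turns glucose phosphate into fructose phosphate, stood at 79.7, 83.1, 77.4 and 81.2 RPKM in inhibitor cells, against 76.1, 86.1, 85.9 and 83.8 RPKM in control cells. The lowest library was a control library, and the log2 fold change was -0.045 ± 0.060 (SE; limma adjusted p = 0.780). Gpi was the steadiest of the 9, with a coefficient of variation of 4.60% over the 8 libraries. Pfkl, the liver-type phosphofructokinase of the committed step, stood at 18.4, 23.7, 21.7 and 18.8 RPKM in inhibitor cells, against 23.0, 25.0, 22.2 and 22.1 RPKM in control cells. The second inhibitor library lay within the control range and the other 3 lay below it. The means were 20.7 ± 2.53 and 23.1 ± 1.35 RPKM in inhibitor and control cells (SD, n = 4 each). The log2 fold change was -0.16 ± 0.087 (SE; limma adjusted p = 0.577).

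Aldoa, the aldolase that splits fructose bisphosphate, was the most abundant of the 9. It stood at 357, 389.9, 359 and 399 RPKM in inhibitor cells, against 372, 419, 419 and 410.3 RPKM in control cells. The first control library lay among the inhibitor values, and the other 3 control libraries lay above all 4 inhibitor libraries. The means were 376 ± 21.3 RPKM in inhibitor cells and 405 ± 22.3 RPKM in control cells (SD, n = 4). This gave a log2 fold change of -0.11 ± 0.075 (SE; limma adjusted p = 0.624).

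The lower part of the pathway oxidises triose phosphate and makes ATP. Gapdh, the dehydrogenase of this step, stood at 4.82, 4.84, 3.70 and 5.55 RPKM in inhibitor cells, against 4.67, 6.31, 4.43 and 5.21 RPKM in control cells, and the groups overlapped widely (limma adjusted p = 0.750). Its level rested on 85 to 166 reads per library. RefSeq (assembly GRCr8) names 78 numbered Gapdh pseudogenes, and how the authors counted reads that match several loci was not given in the sources used here. Its level is therefore uncertain, and a loss of such reads was not tested. The same table names 30 pseudogenes each for Eno1 and Ldha, 19 for Pkm, 13 for Pgam1, 9 for Aldoa, 8 for Pgk1 and 0 for Gpi and Pfkl.

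Pgk1, the phosphoglycerate kinase of the first ATP-forming step, stood at 59.4, 48.8, 52.5 and 65.9 RPKM in inhibitor cells, against 42.0, 58.4, 57.1 and 61.7 RPKM in control cells. The highest value was in the fourth inhibitor library and the lowest in the first control library. The log2 fold change was 0.052 ± 0.13 (SE; limma adjusted p = 0.873), and it was -0.068 without the first control library and -0.022 without the fourth inhibitor library.

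Pgam1, a phosphoglycerate mutase, stood at 111, 115, 106 and 126 RPKM in inhibitor cells, against 129.8, 129, 133 and 119 RPKM in control cells. The fourth inhibitor library and the fourth control library crossed between the groups. The means were 114 ± 8.61 RPKM in inhibitor cells and 127 ± 6.25 RPKM in control cells (SD, n = 4). This gave a log2 fold change of -0.16 ± 0.070 (SE; limma unadjusted p = 0.0528, adjusted p = 0.550).

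Eno1, the enolase that makes phosphoenolpyruvate, had the largest difference of the 9 in size and the smallest p. It stood at 50.1, 54.1, 51.7 and 58.9 RPKM in inhibitor cells, against 56.1, 72.0, 65.9 and 61.1 RPKM in control cells. The fourth inhibitor library lay above the first control library, and the other 3 inhibitor libraries lay below all control libraries. The means were 53.7 ± 3.86 RPKM in inhibitor cells and 63.8 ± 6.76 RPKM in control cells (SD, n = 4), a ratio of 0.842. The log2 fold change was -0.24 ± 0.085 (SE; limma unadjusted p = 0.0183, adjusted p = 0.541), and 4.03% of all genes tested had one as low or lower. Over the 15 alternatives it lay between -0.35 and -0.18, with a limma adjusted p of at least 0.0959. In the authors' deposited table the log2 fold change of Eno1 was -0.27, with a p of 0.00593 and an adjusted p of 0.295.

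Pkm, the pyruvate kinase of most tissues other than liver, stood at 114, 132, 101 and 128 RPKM in inhibitor cells, against 130.3, 119.8, 120.5 and 123 RPKM in control cells. The inhibitor libraries spread to both sides of the control libraries (limma adjusted p = 0.792). Ldha, the lactate dehydrogenase subunit that favours lactate formation, stood at 9.40, 6.64, 9.75 and 12.8 RPKM in inhibitor cells, against 7.16, 13.0, 11.0 and 11.9 RPKM in control cells. Low and high libraries occurred in both groups, and the coefficient of variation over the 8 libraries was 23.7%, the highest of the 9 enzymes. The log2 fold change of Ldha was -0.15 ± 0.20 (SE; limma adjusted p = 0.782), and it was 0.0021 without the second inhibitor library.

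**Figure D2:**
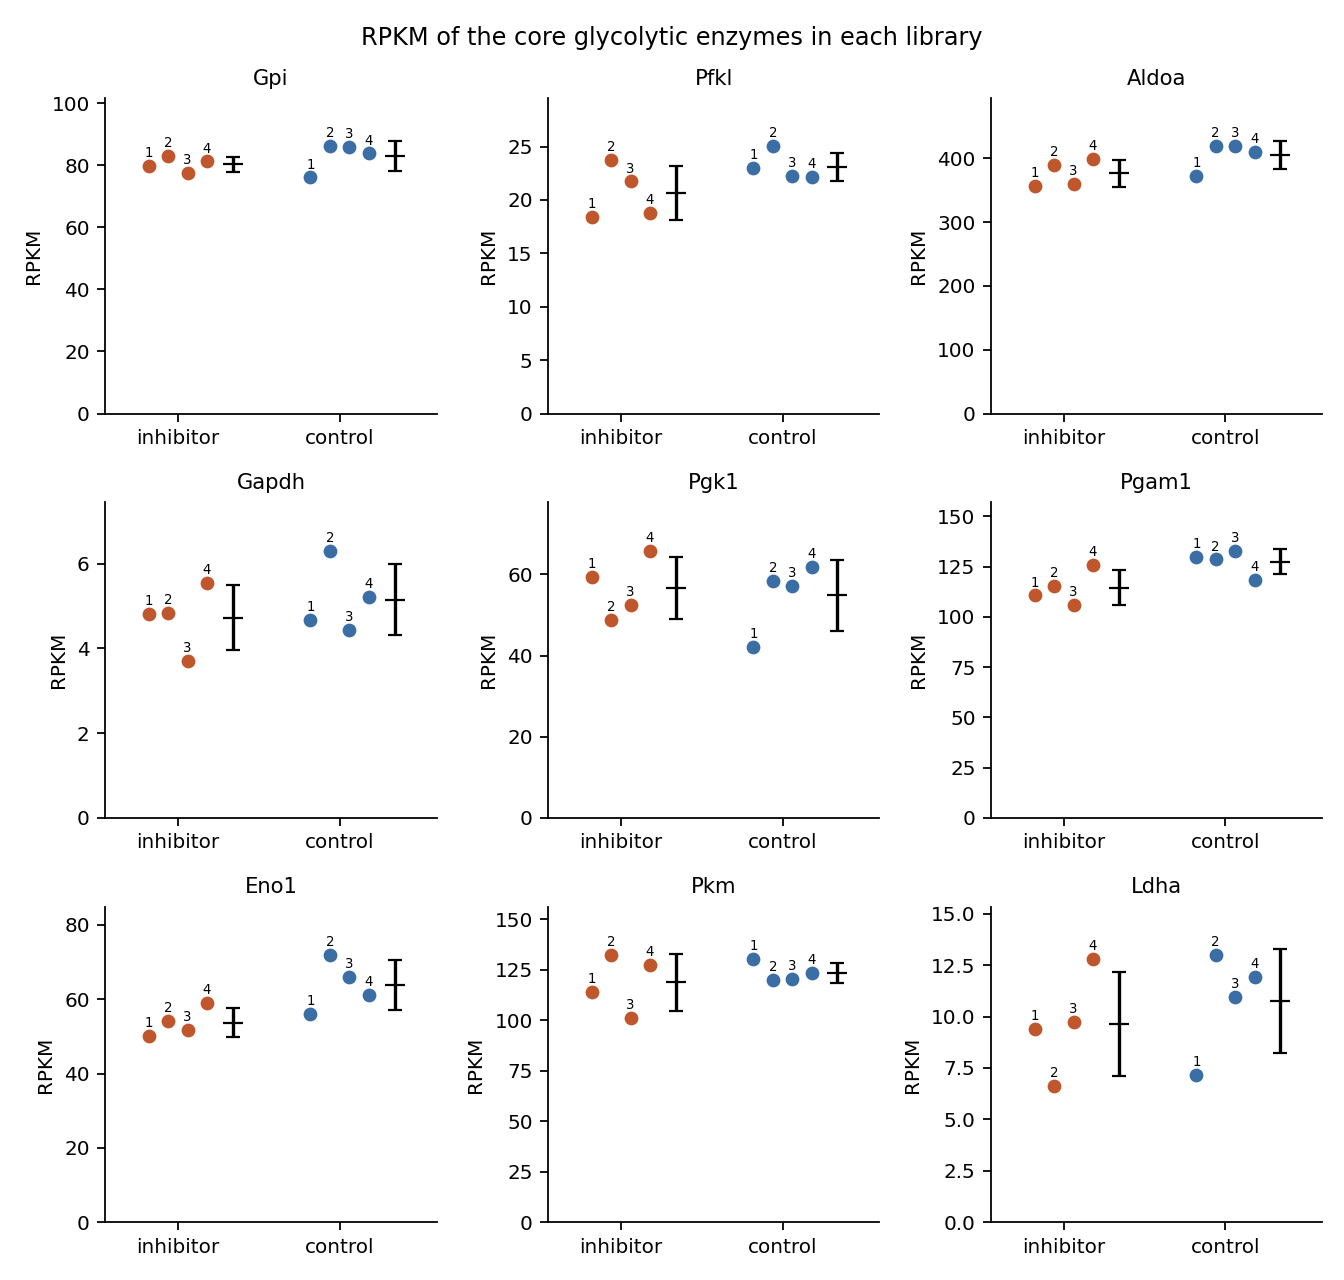
RPKM of the 9 enzymes in each library, numbered 1 to 4, with inhibitor libraries at the left and control libraries at the right of each panel, and the mean and SD beside each group. In every panel the ranges of the groups overlap. The Eno1 panel runs from 50.1 to 58.9 RPKM in inhibitor cells and from 56.1 to 72.0 RPKM in control cells.

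Ordered by level per length over the 8 libraries, Aldoa came first with a mean of 391 RPKM. Pkm and Pgam1 followed at 121 RPKM each, and their ranges overlapped, with Pkm higher in 5 of 8 libraries. Gpi came next at 81.7 RPKM. Eno1 at 58.7 and Pgk1 at 55.7 RPKM could not be separated, since Eno1 was higher in 4 of 8 libraries. Pfkl at 21.9, Ldha at 10.2 and Gapdh at 4.94 RPKM closed the order. Apart from Pkm with Pgam1 and Eno1 with Pgk1, the ranges of neighbours did not overlap in these libraries. Among all 10692 rows Aldoa ranked 51 by mean RPKM, Ldha 5237 and Gapdh 7754. How reads that match several loci were counted is not known. Levels of enzymes with pseudogenes are therefore uncertain, and the order is that of the deposited values.

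The promoters of the enzymes were read for the core of the element that HIF-1 binds. The letters searched were ACGTG and GCGTG on either strand, with overlapping matches counted as 1 site, in RefSeq windows of 250 bases before to 50 bases after each annotated start (GRCr8). Of 33469 such windows, 41.6% held at least 1 site and 0.642% held 5 or more. The set had 12 windows from 9 genes (Pgk1 had no entry in this table and Tpi1 is included), of which 8 held a site. The GC content was 68.3% in the second Eno1 window and 66.7% in the Ldha window, against a median of 51.7% over all windows. The windows of Eno1 and Pgam1 are shown for the 2 enzymes of smallest p, and that of Ldha for its 5 sites, the most in the set. Capitals mark the matches, and the sequences run 5′ to 3′ on the strand of the gene. The windows lie at chr5:166002617-166002916 (plus strand) for the first Eno1 start, chr5:166003111-166003410 (plus strand) for the second, chr1:250672902-250673201 (plus strand) for Pgam1 and chr1:106507842-106508141 (plus strand) for Ldha.
Eno1, first start: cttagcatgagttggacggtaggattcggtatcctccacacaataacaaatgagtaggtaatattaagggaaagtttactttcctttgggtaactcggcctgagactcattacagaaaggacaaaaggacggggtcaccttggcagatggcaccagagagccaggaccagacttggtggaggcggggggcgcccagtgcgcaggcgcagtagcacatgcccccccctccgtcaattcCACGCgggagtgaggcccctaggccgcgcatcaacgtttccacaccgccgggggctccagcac
Eno1, second start: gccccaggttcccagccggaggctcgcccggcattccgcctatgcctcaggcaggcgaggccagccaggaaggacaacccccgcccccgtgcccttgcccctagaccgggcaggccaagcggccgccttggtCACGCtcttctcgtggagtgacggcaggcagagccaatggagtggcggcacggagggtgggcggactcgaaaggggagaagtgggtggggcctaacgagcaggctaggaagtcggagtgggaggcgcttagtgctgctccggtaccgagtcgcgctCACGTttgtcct
Pgam1: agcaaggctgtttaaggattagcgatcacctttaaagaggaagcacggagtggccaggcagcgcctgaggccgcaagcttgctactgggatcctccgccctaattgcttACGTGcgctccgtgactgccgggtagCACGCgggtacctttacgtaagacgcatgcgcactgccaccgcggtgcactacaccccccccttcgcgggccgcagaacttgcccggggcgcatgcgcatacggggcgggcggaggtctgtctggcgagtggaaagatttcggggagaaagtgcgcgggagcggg
Ldha: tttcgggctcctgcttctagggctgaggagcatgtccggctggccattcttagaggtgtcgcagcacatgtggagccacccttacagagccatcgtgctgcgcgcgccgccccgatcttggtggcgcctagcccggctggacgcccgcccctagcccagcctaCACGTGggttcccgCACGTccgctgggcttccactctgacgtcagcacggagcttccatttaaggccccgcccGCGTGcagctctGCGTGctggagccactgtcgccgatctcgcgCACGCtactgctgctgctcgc
The first Eno1 window held 1 site, the second held 2, and Pgam1 held 2. Ldha held 5 sites, of which 1 was the palindrome CACGTG, which contains ACGTG on each strand. The windows of Pfkl (2 sites), Gapdh (3 sites), Gpi (1 site) and the Aldoa start numbered 3 (1 site) also held matches, while those of Pkm, Tpi1 and the first 2 Aldoa starts held none of these letters. A match describes the sequence and is not a measured binding site.

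The isoenzymes of each step differed in how far 1 gene dominated, and no share passed the exact permutation test between the groups. Shares are of the summed RPKM of the isoenzymes named with each share, for 4 steps, and Ldhd is not counted in that of lactate dehydrogenase. Eno1 made up 95.1% ± 0.589 and 95.3% ± 1.08 of Eno1 and Eno3 together in inhibitor and control cells (SD, n = 4; two-sided exact permutation p = 0.686). Eno2, the enolase of neurons and endocrine cells, was not analysed here, so this share is not one of all enolase. Pkm made up 85.3% ± 1.12 of pyruvate kinase RPKM in inhibitor cells and 85.7% ± 2.12 in control cells, beside the liver and red cell gene Pklr (SD, n = 4; exact permutation p adjusted over the 4 shares = 0.971).

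In phosphofructokinase and lactate dehydrogenase the enzymes of the set did not dominate. Pfkl made up 29.8%, 37.5%, 35.7% and 29.8% of the summed RPKM of Pfkl, Pfkm and Pfkp in inhibitor cells, against 41.2%, 37.8%, 36.2% and 32.0% in control cells. The groups overlapped, and the difference of the means was -3.59 percentage points (two-sided exact permutation p = 0.171, and 0.686 after adjustment over the 4 shares, where the smallest possible p is 0.0286). The muscle-type gene Pfkm averaged 23.8 ± 2.26 RPKM in inhibitor cells and 21.8 ± 1.34 RPKM in control cells, and the platelet-type gene Pfkp 17.7 ± 4.01 and 18.2 ± 4.80 RPKM (SD, n = 4). Ldha made up 37.7%, 29.5%, 35.0% and 45.5% of the summed RPKM of Ldha and Ldhb in inhibitor cells, against 26.3%, 41.4%, 36.5% and 44.8% in control cells (exact permutation p = 0.971, two-sided). Ldhb, the subunit that favours lactate oxidation, was the larger part in each of the 8 libraries, with 16.2 ± 1.31 RPKM in inhibitor cells and 18.1 ± 2.35 RPKM in control cells (SD, n = 4). How reads that match pseudogenes were counted is not known, so the levels of the Eno1, Pkm and Ldha shares are uncertain.

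**Figure D3:**
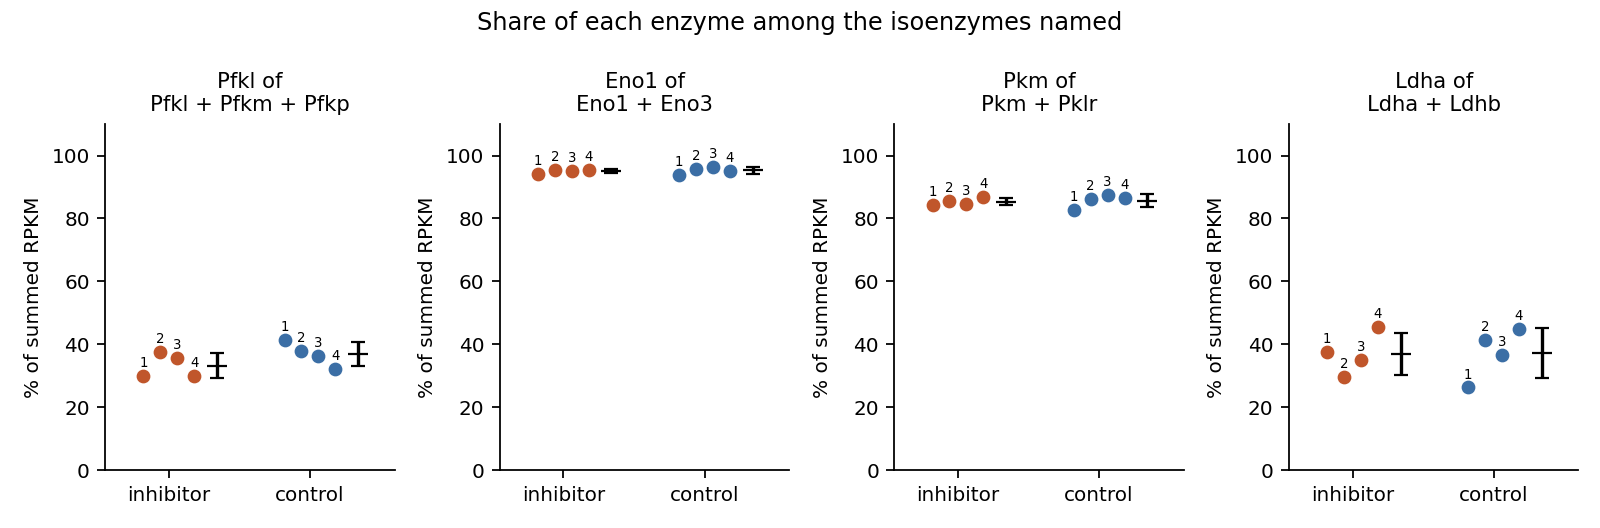
Share of Pfkl, Eno1, Pkm and Ldha in the summed RPKM of the isoenzymes named above each panel, in percent, per library (numbered 1 to 4; inhibitor at the left, control at the right) with mean and SD. Eno1 and Pkm hold at least 82.6% in every library, while Pfkl holds 29.8% to 41.2% and Ldha 26.3% to 45.5%.

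The 9 enzymes varied in part together across the libraries. The second control library was the highest of the 8 for 6 enzymes, and the first and the third inhibitor libraries were each the lowest for 3. The summed RPKM of the 9 was 804, 859, 783 and 896 in inhibitor cells, against 841, 928, 919 and 898 in control cells, and these ranges overlapped. Over the 36 pairs of enzymes the median Pearson r across the 8 libraries was 0.45, between -0.49 for Pfkl with Pgk1 and 0.91 for Aldoa with Eno1, and 31 pairs were positive. The values of a library share its depth and its RNA composition, so these correlations are a description. Pgk1 with Ldha had an r of 0.85, while r was -0.19 for Pfkl with Ldha and -0.25 for Pkm with Ldha.

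**Figure D4:**
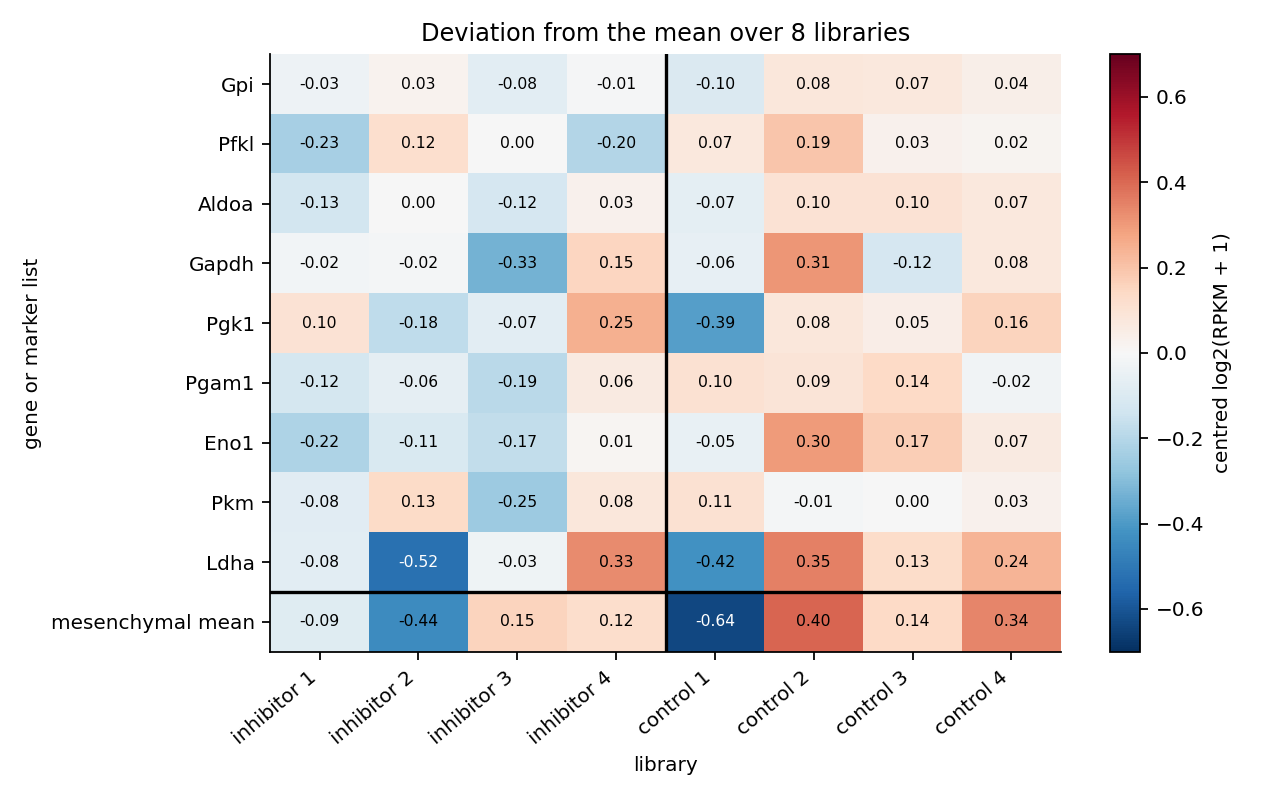
Deviation of each enzyme from its own mean over the 8 libraries (log2(RPKM + 1) units, red above and blue below), with inhibitor libraries at the left, control libraries at the right and the mean of 17 mesenchymal and stellate markers in the bottom row. Ldha and the mesenchymal mean are lowest in the same 2 libraries, the second inhibitor library (marker mean -0.44) and the first control library (marker mean -0.64).

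Ldha correlated with the markers of mesenchymal and stellate cells, the fibroblast-like cells that accompany cultured islets. The relation was not a planned result, and the adjusted p-values below cover the 9 enzymes against this 1 marker list only. The mean of the 17 listed markers deviated from its overall mean by -0.09, -0.44, 0.15 and 0.12 log2 units in the inhibitor libraries, against -0.64, 0.40, 0.14 and 0.34 in the control libraries. The highest and the lowest values were both in control libraries. Across the 8 libraries Ldha had a Pearson r of 0.92 (exact permutation p = 0.00283, adjusted p = 0.0254 over 9 enzymes) and a Spearman rho of 0.81 (exact permutation p = 0.0218, adjusted p = 0.196) with this mean. Without the first control and second inhibitor libraries, those farthest from the median, r was 0.73. Pgk1 had an r of 0.81 (exact permutation p = 0.0156, adjusted p = 0.0702), which was 0.015 without these 2 libraries, so the relation of Pgk1 rested on them. Over the same 6 libraries r was 0.85 for Pfkl, 0.77 for Eno1 and 0.71 for Aldoa, so Ldha did not stand apart there, and it was 0.25 to 0.60 for Pkm, Pgam1, Gapdh and Gpi. Over all 8 libraries the other 7 enzymes had r between -0.45 for Pkm and 0.57 for Gpi, with adjusted exact permutation p of at least 0.374. Of the 17 markers, 14 were negative and 3 positive in log2 fold change, and 0 passed the test. With the marker mean as a covariate the log2 fold change of Ldha was -0.045 and that of Eno1 was -0.22.

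**Figure D5:**
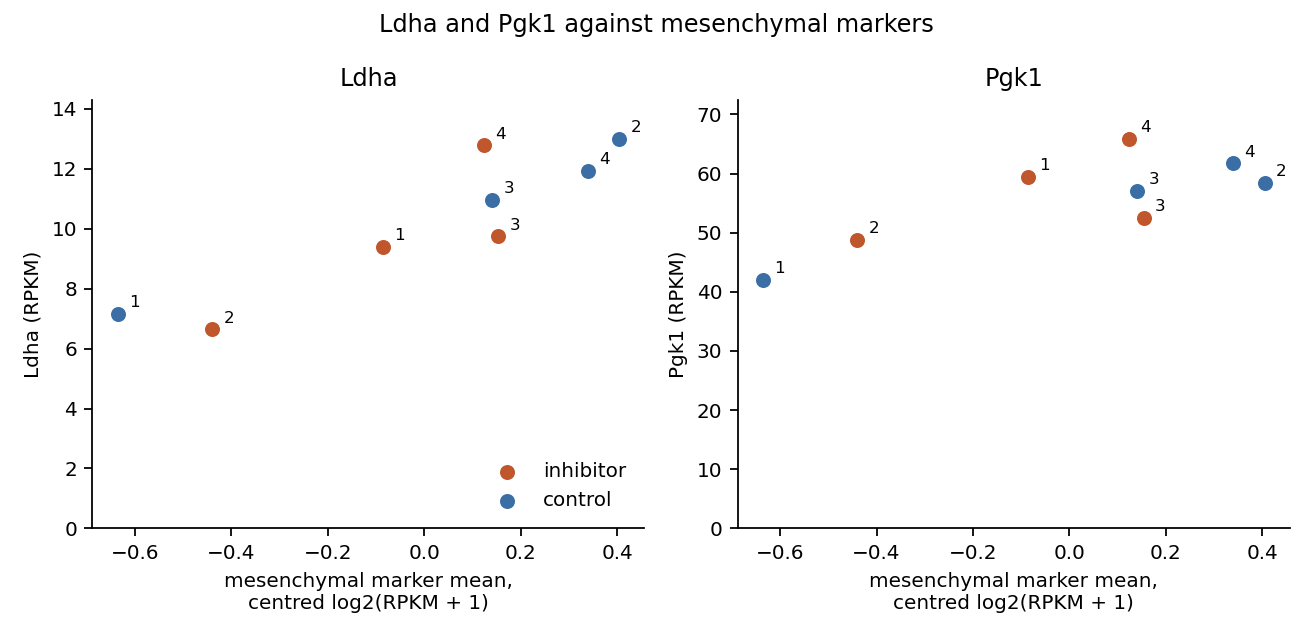
RPKM of Ldha (left panel) and Pgk1 (right panel) against the mean of the mesenchymal and stellate markers (centred log2(RPKM + 1)), with 1 point per library, numbered within its group. Ldha is low, at 6.64 and 7.16 RPKM, in the 2 libraries of lowest marker mean. Pgk1 shows no trend among the other 6 libraries.

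Genes outside the set whose level over the 8 libraries was most like the averaged, standardised profile of the 9 enzymes were Slc7a7 (Pearson r = 0.98), Timm22 (0.98), Retsat (0.97), Kdelr1 (0.97) and Eefsec (0.97). They include an amino acid transporter (Slc7a7), a mitochondrial import protein (Timm22), a retinol saturase (Retsat), a receptor that returns proteins to the endoplasmic reticulum (Kdelr1) and the selenocysteine elongation factor (Eefsec). Each had its highest value in the second control library and its lowest in the third inhibitor library. In all, 37 genes had an r of at least 0.9 over these 8 points, as a description with no test.

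Of the neighbouring pathways, 10 lists with 99 tested genes were read in the same fit, and 0 genes passed in either direction. These 99 genes were 50 with a positive log2 fold change and 49 with a negative, and a median of 0.0067. At an unadjusted p under 0.05 there were 10 (10.1%), close to the 8.98% of all genes. The groups did not overlap for 4 genes higher and 1 gene lower in inhibitor cells, where 3.70% and 1.61% of all genes did so. The 5 genes are given by value in the following sentences, and their adjusted p was 0.541 by limma in each case.

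Among the regulators of the upper pathway, 3 of 6 had a positive log2 fold change. Pfkfb2, which makes the bisphosphate that activates phosphofructokinase, stood at 33.7, 36.0, 30.3 and 32.4 RPKM in inhibitor cells, against 26.6, 24.4, 22.7 and 28.9 RPKM in control cells, a log2 fold change of 0.36 ± 0.085 (SE; limma unadjusted p = 0.00180). Each inhibitor library lay above each control library. Pfkfb3, the inducible relative of Pfkfb2, averaged 6.81 ± 2.62 RPKM in inhibitor cells and 9.27 ± 2.19 RPKM in control cells (SD, n = 4), with overlap. The hexokinase Hk1 averaged 9.25 ± 1.92 and 10.3 ± 2.84 RPKM and Hk2 2.11 ± 0.531 and 2.27 ± 0.726 RPKM in inhibitor and control cells (SD, n = 4). Tigar, a phosphatase that removes this activator, had a log2 fold change of 0.14 and Adpgk, a kinase that phosphorylates glucose with ADP, of 0.043.

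Of 8 glucose and lactate transporter genes, 6 had a positive log2 fold change, with a median of 0.14. Slc2a2, which carries glucose into beta cells of rodents, stood at 587, 632, 500.2 and 554 RPKM in inhibitor cells, against 466, 414, 487 and 497 RPKM in control cells, without overlap. Emb, a chaperone of lactate transporters, stood at 124, 135, 125 and 142 RPKM in inhibitor cells, against 121, 96.5, 119 and 112 RPKM in control cells, also without overlap. The lactate transporters Slc16a1 and Slc16a3 were low, at 3.33 ± 0.797 and 3.46 ± 1.21 RPKM in inhibitor cells and 2.86 ± 0.766 and 3.21 ± 1.34 RPKM in control cells (SD, n = 4). Slc2a1 averaged 11.5 ± 0.986 RPKM in inhibitor cells and 12.4 ± 1.84 RPKM in control cells, and Slc2a3 4.93 ± 0.936 and 4.39 ± 1.65 RPKM (SD, n = 4). Slc2a8, an intracellular glucose transporter, averaged 5.70 ± 0.818 RPKM in inhibitor cells and 5.45 ± 0.415 RPKM in control cells (SD, n = 4). Bsg, another chaperone of lactate transporters, averaged 164 ± 13.0 RPKM in inhibitor cells and 181 ± 12.6 RPKM in control cells (SD, n = 4).

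At the exit of glycolysis into mitochondria, 9 of 13 genes had a positive log2 fold change. Pdk4, a kinase that switches pyruvate dehydrogenase off, stood at 12.9, 15.4, 17.4 and 13.1 RPKM in inhibitor cells, against 10.1, 11.6, 12.1 and 12.2 RPKM in control cells, without overlap. Mpc1, a subunit of the mitochondrial pyruvate carrier, averaged 41.5 ± 3.35 RPKM in inhibitor cells and 36.2 ± 2.72 RPKM in control cells, and Pdha1, a subunit of pyruvate dehydrogenase, 14.4 ± 1.75 and 16.1 ± 0.737 RPKM (SD, n = 4). Of 9 genes of the NADH shuttles 5 had a positive log2 fold change. The glycerol phosphate dehydrogenase Gpd1 averaged 2.74 ± 0.190 RPKM in inhibitor cells and 3.90 ± 0.764 RPKM in control cells, and the oxoglutarate carrier Slc25a11 27.7 ± 1.89 and 24.0 ± 1.73 RPKM (SD, n = 4). The aspartate-glutamate carrier Slc25a12 had a log2 fold change of 0.13.

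In the branches that leave glycolysis, 9 of 13 genes had a negative log2 fold change. Shmt2, the mitochondrial serine hydroxymethyltransferase, stood at 41.2, 40.8, 41.5 and 43.5 RPKM in inhibitor cells, against 46.3, 50.7, 45.2 and 49.0 RPKM in control cells, without overlap. Phgdh, which starts serine synthesis from phosphoglycerate, averaged 31.2 ± 4.76 RPKM in inhibitor cells and 36.4 ± 4.74 RPKM in control cells (SD, n = 4), and Pygb, a glycogen phosphorylase, had a log2 fold change of -0.22. The pentose phosphate list had 3 positive and 3 negative of 6, and Rpia, a ribose phosphate isomerase, had a log2 fold change of 0.16 and Pgls, a lactonase, of -0.11. Of 4 gluconeogenic genes 3 were negative, and Pc, the pyruvate carboxylase, averaged 26.4 ± 2.47 RPKM in inhibitor cells and 31.1 ± 3.70 RPKM in control cells (SD, n = 4). The glucose phosphate carrier Slc37a4 had a log2 fold change of 0.22 and the phosphatase G6pc3 of -0.11.

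Among the remaining isoenzymes, 7 of 10 genes had a negative log2 fold change, with Pfkm at 0.12 and Ldhb at -0.14. Aldoc averaged 2.22 RPKM in inhibitor cells and 2.07 RPKM in control cells, Eno3 2.78 and 3.10 RPKM, and Pklr 20.3 and 20.8 RPKM. Bpgm, which makes the bisphosphoglycerate of red cells, averaged 19.3 RPKM in both groups, Ldhd, a lactate dehydrogenase of the other stereoisomer, 3.05 and 3.16 RPKM, and Pgam5, a mitochondrial phosphatase of the mutase family, 15.6 and 14.7 RPKM.

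The transcription systems that act on glycolytic genes gave no gene past the test. Of 20 genes of the HIF-1 system and its targets outside glycolysis, 10 lay on either side of 0, with a median log2 fold change of -0.0061. Hif1a itself averaged 30.0 ± 3.49 RPKM in inhibitor cells and 26.4 ± 3.31 RPKM in control cells, Ero1a, an oxidase of the endoplasmic reticulum, 36.1 ± 1.77 and 33.2 ± 2.66 RPKM, and Mxi1, a MYC antagonist, 11.4 ± 0.584 and 10.4 ± 0.627 RPKM (SD, n = 4; limma adjusted p between 0.580 and 0.583). Vegfa, a known HIF-1 target, averaged 146 ± 6.50 RPKM in inhibitor cells and 144 ± 4.78 RPKM in control cells (SD, n = 4). Of 10 genes of the MYC and ChREBP systems 6 were positive. Arrdc4, a glucose-induced arrestin, stood at 19.1, 19.1, 15.4 and 17.7 RPKM in inhibitor cells, against 16.4, 14.5, 12.5 and 16.6 RPKM in control cells, with overlap (limma unadjusted p = 0.0436, adjusted p = 0.546). Mycl had a log2 fold change of 0.23 and Mlx, the partner of ChREBP, of 0.082, while Myc averaged 4.75 ± 1.12 RPKM in inhibitor cells and 5.56 ± 1.54 RPKM in control cells (SD, n = 4).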

How the data were processed

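RNA of cultured rat islet cells was sequenced in 8 libraries, 4 of inhibitor cells and 4 of control cells. The authors deposited RPKM for each library, per the file headers. The authors' deposited table also gives a log2 fold change, a fold (ratio of means) and p-values, and how these were tested is not stated. Tools listed in the submitters' processing notes, without role or order, are HTSeq, HISAT2 2.1.0, RSEM 1.3.0 and STAR 2.5.3a, with build rn6. In the 10692 deposited rows the mean of either group was never under 1 RPKM.

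limma 3.58.1 (R 4.3.3) was run on log2(RPKM + 1) of 10688 genes (1 RPKM or more in 4 or more libraries), with group alone, an intensity trend and two-sided p-values. These were adjusted over all 10688 genes by Benjamini-Hochberg, with a threshold of 0.05. The pseudocount understates differences of low genes. The median half-width of a 95% interval was 0.20. Whole reads recovered for 10692 of 10692 rows (relative tolerance 1e-09) gave depth and a limma-voom test. Scripts were tested on simulated data.

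The enzymes and lists were chosen with earlier results of these data known. Named were the enzymes, their listed isoenzymes, the 3 genes of smallest p per list, hexokinases, transporters and the 5 genes of most similar profile. Vegfa, Myc and Adpgk were added after their values were seen. Promoters came from RefSeq (GRCr8). Results on some genes are not reported here.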

Additional observations from a re-analysis of the deposited data

How the results depend on the processing

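Under the 15 alternatives (pseudocount 0.1, no filter, median-of-ratios scaling, limma-voom, library weights, replicate block, mesenchymal covariate and each library left out), 0 genes, 0 enzymes and 0 related genes passed. The median log2 fold change of the enzymes, -0.11, lay between -0.15 and -0.08 with libraries left out and was -0.17 with library weights. Adjusted p over these alternatives lay between 0.0959 and 0.997. Of 135 single-enzyme values 130 kept their sign. Pgk1 was -0.017 with library weights. With libraries left out, Pgk1 ranged from -0.068 to 0.12, Pkm from -0.12 to 0.013 and Ldha from -0.31 to 0.0021, and the causes were not tested. The 30 related genes of smallest p, which were picked by their p in the same data, kept their sign in all 450 values. Leaving out the filter or adding the replicate block cannot change a log2 fold change here, so these settings add nothing to either count. Isoenzyme differences, in percentage points with libraries left out, ranged from -5.18 to -2.11 for Pfkl, -0.725 to 0.12 for Eno1, -1.37 to 0.24 for Pkm and -3.99 to 2.18 for Ldha. Genes at an unadjusted p under 0.05 numbered 960, against 2814 with library weights, 421 without inhibitor 1, 493 without control 2 and 1138 with limma-voom. The labels do not say that equal numbers mark a shared culture, so the numbers were not taken as pairs. Deviations of same-numbered libraries had correlations of 0.14, -0.27, 0.32 and 0.45, and those of other pairings lay between -0.45 and 0.42. A shared culture was not tested. With the replicate block 1109 genes had a limma unadjusted p under 0.05, and Eno1 had a limma adjusted p of 0.464. In this balanced layout the block cannot change a difference of means. Eno1 therefore stayed at -0.24 and the isoenzyme differences at -3.59, -0.26, -0.35 and -0.33 points. The correlation of Ldha with the mesenchymal mean, an alternative set chosen after seeing the data, lay between 0.90 and 0.96 with libraries left out. That of Pgk1 lay between 0.60 and 0.86. Its unadjusted exact permutation p was over 0.05 without inhibitor 2 (r = 0.78) or control 1 (r = 0.60). Among the 9 enzymes Gapdh had the fewest reads, 85 to 166 per library.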
